A study of Drosophila melanogaster and Drosophila melanogaster
Drosophila virilis and Drosophila virilis with 9 samples.

Results

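The cells described here are 129 cells of the stage 6 *Drosophila melanogaster* embryo that carried at least 2 UMIs of *pnr* and no UMI of *vnd*, *ind* or *sim*. A UMI is a molecular tag that marks 1 captured mRNA. The 129 cells lay among the 632 columns ending in 3 of the authors' pooled table, which holds 1297 columns in all. Their share of the columns ending in 3 averaged 20.3% over the libraries. What the 11 column endings of that table stand for is not given in the sources used here. The cells were set mainly against the 419 columns with the same ending and 0 UMIs of *pnr*, called pnr-0 cells below. Of these 419 columns, 220 carried a UMI of *vnd*, *ind* or *sim* and 199 carried none.

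The study profiled dissociated embryos by Drop-seq, which captures single cells in droplets and counts their mRNAs from the 3′ end. There were 7 libraries, of which replicates 1 and 2 mixed *D. melanogaster* with *D. virilis* cells and replicates 3 to 7 held *D. melanogaster* alone. All *D. melanogaster* embryos were *y1 w1118* and carried both *P{st.2::Gal4}* and *P{vnd::dsRED}*, so every cell compared here had the *vnd* reporter transgene. Eggs were laid over 1 h and aged for 2 h 30 min at room temperature, and the dissociated cells were passed through a 20 µm strainer and fixed in 80% methanol.

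At this stage the bone morphogenetic protein (BMP) ligands Dpp and Scw form a gradient that peaks at the dorsal midline. Cells at the peak become amnioserosa, an extraembryonic tissue, and cells on either side become dorsal ectoderm, while the inhibitor Sog and the repressor Brk hold BMP responses off the neurogenic ectoderm further down. *pnr* encodes a GATA-type transcription factor that is switched on by BMP signalling in the dorsal ectoderm of the trunk and later patterns the dorsal epidermis.

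The 129 cells came from all 7 libraries, with 5, 17, 43, 16, 13, 11 and 24 cells in replicates 1 to 7. Each pooled column was tied to the library in which its barcode occurred, and all 632 columns ending in 3 matched a single library to within 2.70% of their UMIs. The cells held 12568 to 134930 UMIs, with a median of 22539, against 12510 to 116731 UMIs, with a median of 19327, in pnr-0 cells. When each cell was thinned at random to 10000 UMIs, the median number of detected genes was 2271 in pnr cells and 2178 in pnr-0 cells. The difference between the library medians of UMIs per cell averaged 2515 ± 4182 UMIs (SD, n = 7 libraries; 2-sided exact sign-flip test, p = 0.219). Against the 199 cells without *vnd*, *ind* or *sim* the same difference was 4073 ± 3887 UMIs (n = 7, 2-sided exact sign-flip test, p = 0.0156, the smallest value that 7 libraries allow). A threshold on *pnr* UMIs went together with deeper cells there, in 7 of 7 libraries. The number of calls with all cells thinned to 1 depth stands in the closing section. Among the 632 columns, 6 pairs of barcodes from 1 library differed at a single base, and 1 of these pairs lay within the 129 cells. Leaving out the shallower barcode of each pair, an alternative chosen after the data were seen, gave 409 calls, 402 of them among the 415 below.

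The cells were chosen by their UMIs of *pnr*, *vnd*, *ind* and *sim*, so the values of these genes are given as a description. The 129 cells carried between 2 and 29 UMIs of *pnr*, with a median of 5. Summed per library and scaled to counts per 1000000 UMIs (CPM), *pnr* ran from 135.2 to 298.5 CPM, with a median of 251.4. Just inside the threshold, 19 cells with 2 UMIs held *cv-2* at 275.2 CPM, *CG45263* at 107 CPM, *sog* at 20.4 CPM and *brk* at 0 CPM. Just outside it, 36 cells with 1 UMI of *pnr* and none of *vnd*, *ind* or *sim* held *cv-2* at 184.9 CPM, *CG45263* at 58.6 CPM, *sog* at 76.8 CPM and *brk* at 19.5 CPM. A further 31 cells had at least 2 UMIs of *pnr* and also a UMI of *vnd* (8 cells), *ind* (17 cells) or *sim* (8 cells), and were not members. Their median depth was 31906 UMIs. Doublets were not called, and whether any of these columns held a pair of cells was not tested.

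The members' share of the columns ending in 3 was 19.2% and 20.7% in the mixed-species replicates 1 and 2, and 21.9%, 13.9%, 21.7%, 19.6% and 24.7% in the single-species replicates 3 to 7. Replicate 4 stood lowest and replicate 7 highest, with 95% confidence intervals of 8.17% to 21.6% and 16.5% to 34.5% (exact Clopper-Pearson, counting error only). The mean share was 19.98% ± 1.06 (SD, n = 2) in mixed-species libraries and 20.4% ± 4.05 (SD, n = 5) in single-species libraries. This difference of -0.40 percentage points was smaller than the spread between libraries (2-sided exact permutation test, p = 0.905, with 0.0476 the smallest value possible). Its sign turned when replicate 1 (0.35) or replicate 7 (0.69) was left out.

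The label of dorsal ectoderm was checked with the other markers given for these cells, *cv-2*, *Ptp99A*, *rau* and *tup*. All 4 passed the test for being higher in pnr cells, with a median log2 fold change of 2.22. That median was -0.0064 over the 4739 genes tested. The test throughout is edgeR's quasi-likelihood test on UMIs summed per library and group, with the library as a block and Benjamini-Hochberg adjustment over all genes tested, written edgeR FDR below and called at 0.05. The summed level of the marker list, *pnr* included, ran from 561.9 to 1032 CPM in pnr cells and from 60.5 to 125.1 CPM in pnr-0 cells. The markers were proposed with results of these data in view, so their counts are not independent evidence for the label. UMIs from the 3′ end are not corrected for transcript length, and levels are therefore compared between groups and not between genes.

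*cv-2* encodes a secreted BMP-binding protein that adjusts BMP signalling near the cell surface. Per library it ran from 195 to 335.8 CPM in pnr cells, with a median of 259.1, against 31.4 to 58.8 CPM, with a median of 45.7, in pnr-0 cells. Every pnr value lay above every pnr-0 value, and the log2 fold change was 2.35 ± 0.13 (SE; edgeR FDR = 1.69e-14). *tup*, a LIM-homeodomain transcription factor needed in the amnioserosa and the dorsal ectoderm, ran from 65.5 to 335.8 CPM in pnr cells with a median of 97.96, against 5.26 to 22.9 CPM with a median of 16.8 in pnr-0 cells. These values did not overlap either (log2 fold change 2.93 ± 0.20 SE, edgeR FDR = 5.09e-12). *Ptp99A*, a receptor-type tyrosine phosphatase, ran from 37.3 to 138 CPM in pnr cells and from 9.21 to 34.6 CPM in pnr-0 cells (log2 fold change 2.10 ± 0.20 SE, edgeR FDR = 3.37e-09). Of the 3 receptor-type phosphatases of this family that could be tested, *Ptp99A* alone passed, while *Ptp69D* had a log2 fold change of -0.09 and *Ptp4E* of 0.16. *rau*, which encodes a Ras-association protein acting downstream of receptor tyrosine kinases, was the weakest of the markers. It ran from 7.74 to 131.1 CPM in pnr cells and from 5.98 to 24.7 CPM in pnr-0 cells. Those ranges overlapped and *rau* was higher in 6 of 7 libraries (log2 fold change 1.62 ± 0.21 SE, edgeR FDR = 1.13e-06).

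Each marker was detected in a larger share of pnr cells. In cells thinned to 10000 UMIs, *cv-2* was detected in 114 of 129 pnr cells (88.4%) and in 91 of 419 pnr-0 cells (21.7%). *Ptp99A* was detected in 38.8% of pnr cells and 15.5% of pnr-0 cells, *tup* in 38.8% and 7.64%, and *rau* in 25.6% and 10.02%. The shares per library did not overlap for *cv-2*, *tup* and *rau*, and overlapped for *Ptp99A*, at 23.1% to 47.1% in pnr cells and 7.41% to 31.6% in pnr-0 cells. Free RNA in the droplets can give a cell UMIs of genes it does not express, so the 295 thinned columns ending in 4, every one of which had a UMI of *sna* or *twi*, served as a measure of that level. Their unthinned median was 24212 UMIs. There *cv-2* was detected in 6.44%, *Ptp99A* in 11.9%, *tup* in 4.07% and *rau* in 3.05% of columns, all below the shares in pnr cells. In the bulk library of intact embryos, a single library with no replicate, the 5 markers had 685 (*pnr*), 1158 (*cv-2*), 259 (*Ptp99A*), 292 (*rau*) and 548 (*tup*) reads.

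Of 4739 genes tested against pnr-0 cells, 415 passed (8.76%). Of these, 181 were higher in pnr cells (3.82%) and 234 lower (4.94%), and 271 had 1 sign in all 7 libraries (5.72%). The shares called higher and lower are those to set beside the list counts against pnr-0 cells. Groups did not overlap at all in 65 genes that were higher (1.37%) and 38 that were lower (0.802%). The leading genes were described by a rule that took, in each direction, the 12 with the largest change among genes past the threshold, of 1 sign in all 7 libraries and with at least 10 CPM in the higher group. Both groups come from the same libraries, and the labels do not say whether libraries stem from separate embryo collections, so the p-values measure the spread between these libraries.

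**Figure D1:**
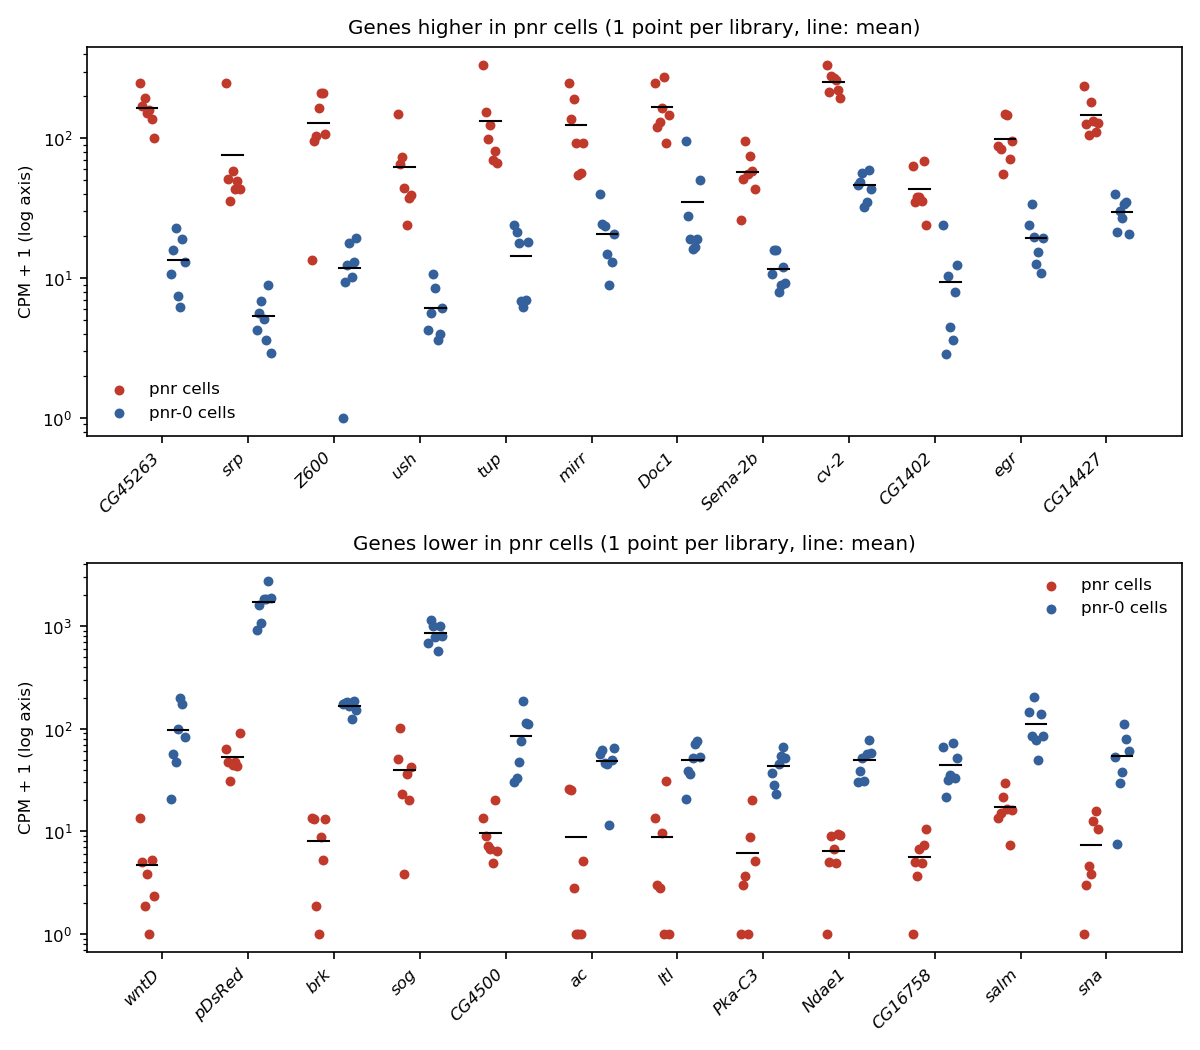
Level of the 12 genes per direction that led the comparison, in CPM plus 1 on a log axis, with 1 point per library for pnr cells (left) and pnr-0 cells (right) and a line at the mean of 7 libraries. *cv-2* and *CG45263* form separate groups, while *Z600* and *Doc1* overlap at their edges and *srp*, *ush* and *tup* each have 1 pnr value far above the rest, from replicate 1.

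Of the 12 genes that led the higher direction, the first by size was *CG45263*, and transcription factors or cofactors made up 5 others, *srp*, *ush*, *tup*, *mirr* and *Doc1*. *CG45263*, a gene with no role stated here (chromosome arm 3R, 8364328 to 8477617, minus strand in the BDGP6.54 annotation, which may differ from the authors' annotation), ran from 99.6 to 248.8 CPM in pnr cells with a median of 158.6. In pnr-0 cells it ran from 5.26 to 21.8 CPM with a median of 12.1. The groups lay far apart, at a mean of 165.3 ± 46.7 CPM in pnr cells and 12.6 ± 6.04 CPM in pnr-0 cells (SD, n = 7 each; log2 fold change 3.42 ± 0.18 SE, edgeR FDR = 1.32e-14). This gene overlaps 4 other annotated genes, and since strand use in the counting is not given in the sources used here, its UMIs cannot be assigned to it alone. The same limit holds for other leading genes. *egr* overlaps 4 genes, *ush* and *Ndae1* 3 each, and *tup*, *Z600*, *Sema-2b* and *brk* 2 each, while *mirr*, *Doc1*, *cv-2* and *sog* overlap none.

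*srp*, a GATA factor of the blood, fat body and amnioserosa primordia (3R, 15986152 to 16004085), had 34.7 to 248.8 CPM in pnr cells with a median of 48.95, against 1.91 to 7.97 CPM with a median of 4.07 in pnr-0 cells. *ush*, a zinc-finger cofactor that binds Pnr and Srp (2L, 476220 to 540560), had 23.2 to 149.3 CPM with a median of 43.1 in pnr cells, against 2.63 to 9.72 CPM with a median of 4.67 in pnr-0 cells. Neither gene overlapped between the groups, and in both the top value came from the 5 pnr cells of replicate 1. The log2 fold changes were 3.34 ± 0.27 for *srp* (SE, edgeR FDR = 1.10e-10) and 3.04 ± 0.23 for *ush* (SE, edgeR FDR = 2.42e-11). Without replicate 1 both genes still passed. *mirr*, an Iroquois-class homeodomain factor, had 54.1 to 248.8 CPM in pnr cells with a median of 91.9, against 7.90 to 39.2 CPM with a median of 19.7 in pnr-0 cells. The groups were separate (log2 fold change 2.59 ± 0.15 SE, edgeR FDR = 1.60e-13).

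Of the GATA factors and their cofactor, *srp*, *ush* and *grn* were called higher, and *GATAd* had a log2 fold change of -0.10. *grn*, also a GATA factor, was the weakest at 0.83, higher in 5 of 7 libraries (edgeR FDR = 0.0238), with a mean of 58.3 CPM in pnr cells and 44.2 CPM in pnr-0 cells. Its call was lost without replicate 2 (0.71), 3 (0.86), 6 (0.66) or 7 (0.84), with DESeq2 (0.84) and without the block (0.74). Against the 199 cells without *vnd*, *ind* or *sim* its value was -0.029.

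*Z600*, a small inhibitor of mitotic entry, had 12.4 to 208.8 CPM in pnr cells with a median of 106.4, against 0 to 18.5 CPM with a median of 11.5 in pnr-0 cells. The ranges met only at the low value of replicate 1 (log2 fold change 3.29 ± 0.18 SE, edgeR FDR = 1.69e-14). Cell-surface and secreted proteins were also among the leading genes. *egr*, the fly tumour necrosis factor ligand, averaged 97.8 ± 36.7 CPM in pnr cells and 18.4 ± 7.71 CPM in pnr-0 cells (SD, n = 7 each; log2 fold change 2.25, edgeR FDR = 3.38e-09). *Sema-2b*, a secreted guidance protein of the semaphorin family, averaged 56.8 ± 22.2 CPM in pnr cells and 10.6 ± 3.29 CPM in pnr-0 cells (SD, n = 7 each; log2 fold change 2.42, edgeR FDR = 8.03e-11). The list was completed by *CG14427* at 4.59-fold and *CG1402* at 4.90-fold, for which no role is stated here.

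The list of peak BMP targets and amnioserosa genes was described as a group. Of its 12 genes, 8 could be tested, 7 of which were higher in pnr cells and none lower. Their median log2 fold change was 2.18, beside -0.0064 over all genes tested. The T-box factors of the Dorsocross locus, which act in amnioserosa and dorsal ectoderm development, all rose. *Doc1* had 91.5 to 274.6 CPM in pnr cells with a median of 145.9, against 15.1 to 94.7 CPM with a median of 17.97 in pnr-0 cells. The pnr-0 cells of replicate 1, at 94.7 CPM, made these ranges meet (log2 fold change 2.42 ± 0.20 SE, edgeR FDR = 2.01e-10). *Doc2* averaged 68.5 CPM in pnr cells and 14.2 CPM in pnr-0 cells, and *Doc3* 101.4 CPM in pnr cells and 18.3 CPM in pnr-0 cells, with edgeR FDR of 6.91e-08 and 6.24e-06. The 3 *Doc* genes are paralogs, and how the authors' counting treated any reads they share is not given in the sources used here.

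*net*, a bHLH repressor, averaged 253.8 ± 60.1 CPM in pnr cells and 64.1 ± 23.8 CPM in pnr-0 cells (SD, n = 7 each), without overlap. Its log2 fold change was 2.04 ± 0.13 (SE, edgeR FDR = 7.39e-13). *Ance*, a peptidase of the angiotensin-converting enzyme family and a known BMP target, averaged 36.4 CPM in pnr cells and 30.2 CPM in pnr-0 cells and did not pass (log2 fold change 0.44, edgeR FDR = 0.481). *zen*, *zen2*, *C15* and *peb*, transcription factors of the amnioserosa, were too low in the 2 groups for the test. *zen* averaged 31.7 CPM in pnr cells and 3.84 CPM in pnr-0 cells, from 94 and 46 UMIs, and *C15* averaged 19.4 CPM in pnr cells and 1.23 CPM in pnr-0 cells, from 57 and 14 UMIs.

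**Figure D2:**
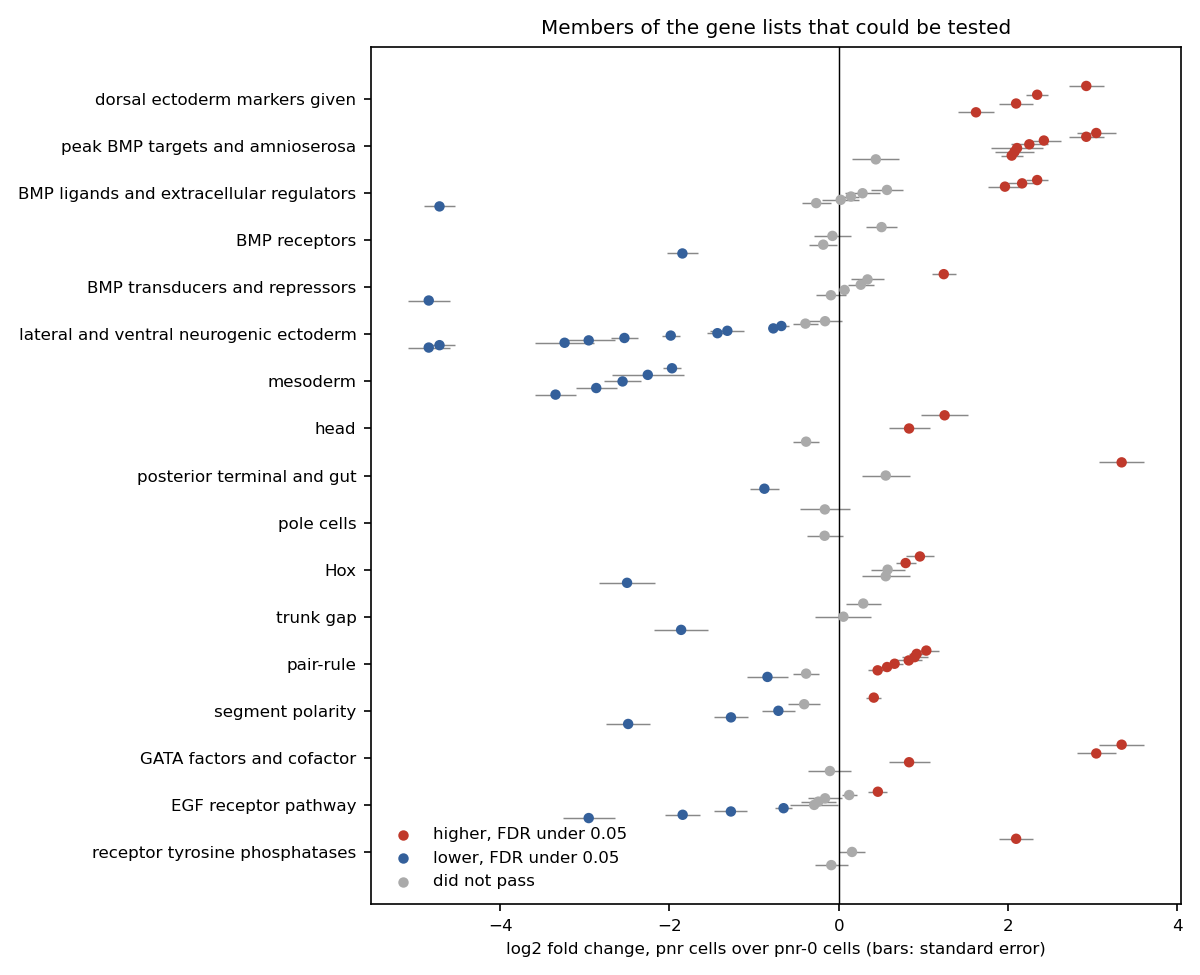
log2 fold change of pnr cells over pnr-0 cells for every gene of the lists that could be tested, 1 row of points per list, with bars for the standard error and colour for genes past the threshold. The peak BMP and marker lists lie to the right around 2, the neurogenic and mesoderm lists to the left, and the receptor, transducer, gap and EGF receptor lists spread around 0.

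The columns ending in 6 of the pooled table also carried *pnr*, and their values stand beside the members' because 51 of those 52 columns had at least 2 UMIs of it. Their *pnr* level was 289.3 CPM over all UMIs of those columns, against 67.5 CPM over all columns ending in 3, which include the pnr-0 cells. On the same measure, members with a UMI of *zen*, *zen2*, *C15*, *peb*, *ush* or *tup* held *pnr* at 250.1 CPM. Members without such a UMI held it at 207 CPM. The members' level is set in part by the threshold. In thinned cells *zen* was detected in 13.2% of pnr cells, 86.3% of the columns ending in 6 and 2.86% of pnr-0 cells. *Doc1* was detected in 58.1% of pnr cells and 100% of those columns, and *tup* in 38.8% of pnr cells and 100% of those columns. *dpp* and *cv-2* differed less, at 70.5% and 88.4% of pnr cells against 78.4% and 96.1% of the columns ending in 6. Any of *zen*, *zen2*, *C15*, *peb*, *ush* and *tup* was detected in 68 of 129 pnr cells (52.7%), in 100% of the columns ending in 6 and in 15.5% of pnr-0 cells. Since the column endings are groups that the authors may have formed from these genes, the differences are a description without a test.

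Ligands and extracellular regulators of the BMP pathway moved in both directions. Of 9 testable members of that list 3 were higher, *dpp*, *tsg* and *cv-2*, and *sog* was lower. *dpp*, the main BMP ligand, had 62.2 to 174 CPM in pnr cells with a median of 106.9, against 16.9 to 39.2 CPM with a median of 21.5 in pnr-0 cells. The groups did not overlap (log2 fold change 2.17 ± 0.16 SE, edgeR FDR = 2.16e-11). *tsg*, a secreted protein that works with Sog in carrying BMP ligands, had 20.2 to 124.4 CPM in pnr cells with a median of 43.1, against 4.67 to 16.3 CPM with a median of 13.4 in pnr-0 cells (log2 fold change 1.96 ± 0.20 SE, edgeR FDR = 1.29e-08). *sog*, the BMP inhibitor of the neurogenic ectoderm, had 2.87 to 100.9 CPM in pnr cells with a median of 34.8, against 568.5 to 1143 CPM with a median of 801.4 in pnr-0 cells. Every pnr library was below every pnr-0 library (log2 fold change -4.72 ± 0.18 SE, edgeR FDR = 6.18e-18). The ligand *gbb* had a log2 fold change of 0.14, the regulators *srw* and *cv* 0.28 and 0.57, and the glypicans *dally* and *dlp* -0.27 and 0.02, none of which passed. *cv* passed without replicate 1 (0.61) or replicate 7 (0.75). The ligand *scw* and the proteases *tld* and *tok* were too low to test.

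Of the 4 testable genes of the receptor list, 1 changed. *tkv*, the type I receptor for Dpp, had 8.61 to 51.1 CPM in pnr cells with a median of 23.2, against 55.5 to 102.6 CPM with a median of 89.8 in pnr-0 cells. The groups did not overlap (log2 fold change -1.85 ± 0.19 SE, edgeR FDR = 9.24e-09). *tkv* overlaps 8 other annotated genes, whose UMIs may be among these. The type I receptor *sax* had a log2 fold change of -0.07, the type II receptor *put* of -0.18 and *babo* of 0.51 (edgeR FDR = 0.0928), which passed without replicate 3 (0.75).

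Among transducers and repressors, *shn* rose and *brk* fell. *shn*, a zinc-finger partner of the Mad and Medea complex in repression, had 69.6 to 136.2 CPM in pnr cells with a median of 86.1, against 27.3 to 50.01 CPM with a median of 38.9 in pnr-0 cells (log2 fold change 1.24 ± 0.14 SE, edgeR FDR = 9.84e-08). *brk*, the repressor of BMP targets, had 0 to 12.4 CPM in pnr cells with a median of 7.74, against 122.4 to 187.3 CPM with a median of 173.1 in pnr-0 cells (log2 fold change -4.84 ± 0.25 SE, edgeR FDR = 7.57e-15). Neither gene overlapped between the groups. The signal transducers *Mad* and *Med* did not pass, with log2 fold changes of 0.26 and 0.34, and neither did *Smox* at -0.09.

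Genes of the lateral and ventral neurogenic ectoderm were lower in pnr cells. Of 12 testable genes of the neurogenic list, the genes that chose the cells left out, 10 were lower and none higher, with a median log2 fold change of -1.71. Of all genes tested, 4.94% were lower. The members lack *vnd*, *ind* and *sim* by rule, so these counts are partly set by the choice. Against the 199 cells without *vnd*, *ind* or *sim*, 8 of 11 testable genes of the list were lower and 1 higher, with a median of -1.12. The summed level of the whole list, with *vnd* and *ind* counted in, was 1042 to 2546 CPM in pnr cells and 3730 to 5791 CPM in pnr-0 cells. This gap is therefore also partly set by the choice. *SoxN*, a Sox-family factor of the neuroectoderm, had 24.9 to 397.4 CPM in pnr cells with a median of 116, against 608 to 995.6 CPM with a median of 682.5 in pnr-0 cells (log2 fold change -2.53 ± 0.16 SE, edgeR FDR = 7.39e-13). *sca*, a secreted protein that limits neural precursors, had 48.8 to 167.4 CPM in pnr cells, against 285.6 to 493.9 CPM in pnr-0 cells (log2 fold change -1.99, edgeR FDR = 1.50e-14). Both were separate between the groups. *ac* and *l(1)sc*, proneural bHLH genes, had log2 fold changes of -3.24 and -1.32, the EGF receptor ligand *vn* -2.95, the FGF ligand *ths* -1.43 and the Notch ligand *Dl* -0.77, all past the threshold (edgeR FDR from 2.93e-10 to 1.43e-05). *ac* overlapped between the groups, and *l(1)sc* was not called against the 199 cells without *vnd*, *ind* or *sim* (-0.64). *rho*, the protease that activates EGF receptor ligands, was at -0.16 with means of 161.2 CPM in pnr cells and 134 CPM in pnr-0 cells and did not pass, and neither did the FGF ligand *pyr* at -0.39, which passed without replicate 2 (-0.52).

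*pDsRed*, the transcript of the *vnd* reporter, had 30.3 to 90.02 CPM in pnr cells with a median of 46.4, against 907.9 to 2769 CPM with a median of 1827 in pnr-0 cells (log2 fold change -5.16 ± 0.12 SE, edgeR FDR = 1.88e-23). Because cells with *vnd* were removed from the members by rule, this value is partly set by the choice. Against cells without *vnd*, *ind* or *sim* it was -3.07. *wntD*, a Wnt-family feedback inhibitor of the Dorsal pathway, had 0 to 12.4 CPM in pnr cells, against 19.6 to 196.1 CPM in pnr-0 cells (log2 fold change -5.25 ± 0.29 SE, edgeR FDR = 3.28e-14). *salm*, a zinc-finger factor with homeotic functions in head and tail, had 6.39 to 28.7 CPM in pnr cells, against 48.7 to 203.8 CPM in pnr-0 cells (log2 fold change -2.91 ± 0.21 SE, edgeR FDR = 1.47e-11).

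Several of the remaining leading genes were also high in columns with mesoderm transcripts. *CG4500*, an acyl-CoA ligase, averaged 8.71 CPM in pnr cells and 84.7 CPM in pnr-0 cells (log2 fold change -3.35, edgeR FDR = 1.26e-11). *sna*, the zinc-finger repressor of the mesoderm, averaged 6.36 CPM in pnr cells and 53.0 CPM in pnr-0 cells (log2 fold change -2.87, edgeR FDR = 2.48e-10). In the columns ending in 4, all with *sna* or *twi*, the mean level was 632.4 CPM for *CG4500*, 414.8 CPM for *sna*, 291.9 CPM for *CG16758*, 169.7 CPM for *ltl*, 151.6 CPM for *Pka-C3* and 147.5 CPM for *wntD*. *ltl*, *Pka-C3*, *Ndae1* and *CG16758* were 8.45-, 8.05-, 7.85- and 7.57-fold lower in pnr cells than in pnr-0 cells. All 5 testable genes of the mesoderm list were lower in pnr cells, and its summed level was 149.2 to 402.2 CPM in pnr cells and 403.4 to 1544 CPM in pnr-0 cells. In thinned cells *sna* or *twi* was detected in 18 of 129 pnr cells (13.95%) and 99 of 419 pnr-0 cells (23.6%). Among barcodes outside the pooled table, chosen in both groups to have no UMI of *sna* or *twi*, the log2 fold change was -1.72 for *CG4500*, against -3.35 here, -1.94 for *ltl*, against -3.08, -2.75 for *Ndae1*, against -2.97, and -1.53 for *salm*, against -2.91. *wntD*, *Pka-C3* and *CG16758* were too low to test there. At the shallow depth of those barcodes a cell can lack a UMI of *sna* and *twi* and still express them. The part of mesoderm transcripts in the genes called lower was not tested.

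Against pnr-0 cells, all 24 leading genes kept their direction and their call under every alternative that could be fitted, which are listed in the closing section. They were chosen for a call and 1 sign in every library, so much of this was set by the choice. Calls lost in the other comparisons are also given in the closing section. *wntD*, *CG4500*, *ltl*, *Pka-C3*, *Ndae1*, *CG16758* and *sna* could not be tested against the 199 cells without *vnd*, *ind* or *sim*. Against the 199 cells without *vnd*, *ind* or *sim*, the changes of *salm* (-3.09) and *CG14427* (2.25) were larger than against all pnr-0 cells, and those given next were smaller. The log2 fold changes there were 2.88 for *CG45263*, 2.99 for *srp*, 2.16 for *tup*, 1.92 for *mirr*, 1.53 for *Doc1* and 1.42 for *cv-2*, and -3.78 for *brk* and -3.20 for *sog*. *dpp* was at 1.15 and *tsg* at 1.60, *SoxN* at -2.07 and *tkv* at -1.87, all called. *shn* was at 0.51 and missed the threshold (edgeR FDR = 0.0537). *rho* turned to 1.37 and was called higher in that comparison (edgeR FDR = 0.000116). Of the 181 genes called higher, 169 could be tested against these 199 cells and 109 were called, and of the 234 called lower, 208 could be tested and 156 were called.

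Levels were also followed across cells by the number of *pnr* UMIs, in cells without *vnd*, *ind* or *sim*. The classes with 0, 1, 2, 3 to 4, 5 to 8 and at least 9 UMIs held 199, 36, 19, 44, 37 and 29 cells. *CG45263* stood at 20.5, 58.6, 107, 152.9, 143.6 and 189.5 CPM in that order, and *cv-2* at 86.9, 184.9, 275.2, 234.2, 244.2 and 238.2 CPM. *SoxN* stood at 637.3, 229.2, 280.3, 182.2, 196.3 and 39.1 CPM, and *brk* at 84.3, 19.5, 0, 17.4, 3.83 and 0.869 CPM. Most of the difference in *cv-2*, *brk* and *SoxN* lay between 0 and 2 UMIs, and *SoxN* was lowest in the cells with the most *pnr*. The median depth of the classes was not equal, at 17290 UMIs in the first and 35960 UMIs in the last, and its part in these levels was not tested.

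**Figure D3:**
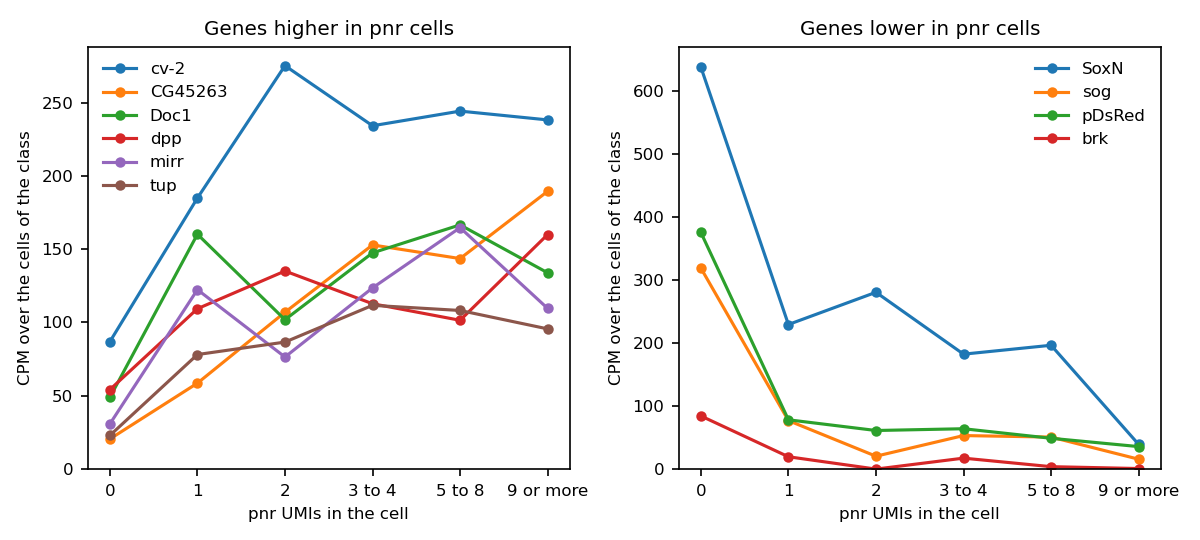
Level in CPM over all UMIs of the class, for cells ending in 3 without *vnd*, *ind* or *sim*, by the number of *pnr* UMIs in the cell. The 6 genes on the left are higher in every class with *pnr* UMIs than in the class with 0, and *SoxN*, *sog*, *pDsRed* and *brk* (right) are lower in every such class.

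Genes of the anterior to posterior axis changed as well. Of 5 testable Hox genes, *Antp* and *Ubx* rose, *Dfd* fell, and *abd-A* and *Abd-B* did not pass. *abd-A* stood at 0.58 and passed without replicate 1 (0.64) or replicate 7 (0.84). *Antp*, the Hox gene of the thorax, had 193.7 to 502.3 CPM in pnr cells with a median of 379, against 116.5 to 267 CPM with a median of 194.8 in pnr-0 cells. It was higher in 7 of 7 libraries although the ranges overlapped (log2 fold change 0.79 ± 0.12 SE, edgeR FDR = 9.30e-06). *Ubx*, the Hox gene of the posterior thorax and first abdominal segment, averaged 189.6 CPM in pnr cells and 85.2 CPM in pnr-0 cells and was higher in 6 of 7 libraries (log2 fold change 0.96, edgeR FDR = 7.46e-05). *Dfd*, the Hox gene of the posterior head, averaged 5.47 CPM in pnr cells and 28.95 CPM in pnr-0 cells (log2 fold change -2.50, edgeR FDR = 1.34e-06). At 10000 UMIs a cell, *Antp*, *Ubx*, *abd-A* or *Abd-B* was detected in 127 of 129 pnr cells (98.4%) and 305 of 419 pnr-0 cells (72.8%), while *lab*, *pb*, *Dfd* or *Scr* was detected in 6.20% of pnr cells and 20.3% of pnr-0 cells.

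All 9 pair-rule genes were tested, and 7 were higher and 1 lower in pnr cells, with a median log2 fold change of 0.66. Over all 4739 genes tested, 3.82% were higher and 4.94% lower. *h*, a bHLH repressor, averaged 441.2 CPM in pnr cells and 223.8 CPM in pnr-0 cells (log2 fold change 0.92, edgeR FDR = 1.21e-08), and *prd*, a paired-domain factor, averaged 165.7 CPM in pnr cells and 69.9 CPM in pnr-0 cells (log2 fold change 1.04, edgeR FDR = 6.24e-06). *eve*, *ftz*, *run*, *odd* and *opa* also rose, by 0.46 to 0.90 on the log2 scale. *ftz* was not called by DESeq2, *eve* was not called without the block (0.91), and *odd* was called neither without replicate 3 (0.42) nor without the block (0.48). *slp2* was lower at -0.84 in 4 of 7 libraries, and its call was lost without replicate 3 (-0.61), 5 (-0.76) or 6 (-0.60), with DESeq2 (-0.82), without the block (-0.87) and at 3 *pnr* UMIs (-0.73). Against the 199 cells without *vnd*, *ind* or *sim*, *odd* (0.30) and *slp2* (-0.57) were not called. Of the segment polarity genes, the paired-type factor *gsb* fell furthest, with means of 21.8 CPM in pnr cells and 129 CPM in pnr-0 cells (log2 fold change -2.49, edgeR FDR = 2.37e-08). *en* (-1.27) and *wg* (-0.71) were also lower, *ptc* (0.41) was higher and *hh* (-0.41) did not pass. The call of *wg* was lost without replicate 6 (-0.51), and *wg* (-0.50) and *ptc* (0.23) were not called against the 199 cells without *vnd*, *ind* or *sim*. Of the trunk gap genes *gt* fell (-1.86), and *Kr* (0.29) and *kni* (0.06) did not pass.

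Of the EGF receptor pathway, *Egfr* itself was higher at 0.46 and the ligand *vn*, the ligand-trafficking protein *S* (-0.65), the transcription factor *pnt* (-1.84) and the feedback inhibitor *sty* (-1.27) were lower. The call of *Egfr* was lost without the block (0.47) and at 10000 UMIs a cell (0.32), and against the 199 cells without *vnd*, *ind* or *sim* its value was -0.077. Against those cells *S* (-0.16) and *pnt* (-0.81) were not called either. Head, posterior and pole cell lists gave few calls. In the head list *grn* and *lov* were higher among 3 tested genes, with a median of 0.83, and *oc*, *ems*, *hbn*, *btd*, *tll*, *eya* and *croc* were too low to test. Without the low-count filter 2 of the 10 genes were higher and 3 lower, and the median was -0.40. *lov* was not called without the block (1.23) or against the 199 cells (0.59). In the posterior list *srp* was higher and *apt* lower (-0.88, not called against the 199 cells at -0.32), and *byn*, *fkh*, *hkb* and *cad* were too low to test. Both testable pole cell genes, *ovo* (-0.16) and *zpg* (-0.17), did not pass.

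The nearest region further down the side of the embryo was taken as the cells with at least 2 UMIs of *Dr* and none of *pnr*. Unlike the pnr cells, these Dr cells could also carry UMIs of *vnd*, *ind* or *sim*. Cells of other neurogenic columns can therefore be among them, and their part in the genes called lower was not tested. *Dr* (also called *msh*) encodes a homeodomain factor of the lateral column of the neuroectoderm. In 5 libraries with at least 3 cells of each kind, 113 pnr cells were set against 43 Dr cells. Of 3165 genes tested, 102 passed (3.22%), 69 higher in pnr cells (2.18%) and 33 lower (1.04%). Among those called, 88 had 1 sign in all 5 libraries (2.78%). Groups did not overlap in 64 genes that were higher (2.02%) and 23 that were lower (0.727%). The fit used replicates 2, 3, 4, 5 and 7, and values below are in that order. Since this comparison shares its pnr cells with the one above, its results are given side by side and do not count as a repeat of it.

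*mirr* led the higher genes, with 137.2, 191.5, 91.9, 54.1 and 91.4 CPM in pnr cells, against 9.19, 2.41, 7.05, 0 and 0 CPM in Dr cells. Every pnr value lay above every Dr value (log2 fold change 5.48 ± 0.42 SE, edgeR FDR = 3.67e-09). *tup* had 153.3, 97.96, 123.4, 69.6 and 65.5 CPM in pnr cells, against 9.19, 6.03, 0, 0 and 0 CPM in Dr cells (log2 fold change 4.38 ± 0.40 SE, edgeR FDR = 3.56e-08). *Doc1* had 119, 130.9, 163.6, 274.6 and 145.9 CPM in pnr cells, against 0, 7.24, 14.1, 0 and 6.535 CPM in Dr cells (log2 fold change 4.29 ± 0.34 SE, edgeR FDR = 3.67e-09). The Dr values rest on few UMIs, and the sizes of these folds are therefore uncertain. *CG45263* and *egr* completed the 5 genes that the rule named, at 4.27 and 4.24, and all 6 testable genes of the peak BMP list were higher, with a median log2 fold change of 4.06, beside -0.015 over all genes tested.

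*brk* led the lower genes, with 12.1, 0.891, 0, 7.74 and 12.3 CPM in pnr cells, against 137.9, 119.4, 112.7, 37.1 and 241.8 CPM in Dr cells (log2 fold change -4.55 ± 0.38 SE, edgeR FDR = 8.30e-09). *SoxN* had 397.4, 110.4, 48.8, 116 and 125.5 CPM in pnr cells, against 1066, 1048, 634.1, 537.9 and 927.9 CPM in Dr cells (log2 fold change -2.65 ± 0.21 SE, edgeR FDR = 3.67e-09). Neither gene overlapped between the groups. *sca* was also lower at -1.96, *gsb* at -2.44 and *Toll-6*, a Toll-family receptor with a role in cell intercalation, at -2.13. *Toll-6* had 52.5, 26.7, 5.74, 34.8 and 49.1 CPM in pnr cells, against 147.1, 221.9, 112.7, 55.6 and 91.5 CPM in Dr cells (edgeR FDR = 5.64e-05). Of 10 testable neurogenic genes 9 were lower, of which *neur* (-0.56) and *pyr* (-0.79) lost their calls in most alternatives, *l(1)sc* (-1.52) without the block (-1.40) or replicate 7 (-1.41), and *sog* (-3.20) with DESeq2 (-2.98). *dpp* (2.06), *cv-2* (2.33), *net* (3.42) and *Ptp99A* (2.66) were higher than in Dr cells, *tkv* (-1.96) was lower, and *shn* (0.94, edgeR FDR = 0.0415) was just past the threshold. The call of *shn* was lost with DESeq2 (0.91), without the block (0.81) and without replicate 3 (0.65), 4 (0.97), 5 (0.91) or 7 (0.88).

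Barcodes that the authors left out of the pooled table gave cells that the rule had not used. There were 3775 such *D. melanogaster* barcodes with at least 3000 UMIs, at least 90% of them on *D. melanogaster* genes. Of these, 246 had at least 2 UMIs of *pnr* and none of *vnd*, *ind*, *sim*, *sna* or *twi*, and 1742 had none of *pnr*, *sna* or *twi*. They were shallower than the pooled cells, with medians of 7308 UMIs in pnr barcodes and 4630 UMIs in pnr-0 barcodes, and they were not restricted to ectoderm. Of 3685 genes tested, 618 passed (16.8%), 267 higher in pnr barcodes (7.25%) and 351 lower (9.53%). Among those called, 406 had 1 sign in all 7 libraries (11%), and groups did not overlap in 101 genes that were higher (2.74%) and 50 that were lower (1.36%). All 12 genes that led the higher direction in the pooled table were called higher here, and of the 12 that led the lower direction 7 could be tested and all 7 were called lower. The barcodes come from the same 7 libraries as the pooled cells, and 56 of the 3775 differed at 1 base from a pooled barcode of their library. Leaving those out, also chosen after the data were seen, gave 588 calls.

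The leading higher genes outside the pooled table included amnioserosa genes. *C15*, a homeodomain factor of the amnioserosa, averaged 79.95 ± 26.9 CPM in pnr barcodes and 7.42 ± 3.76 CPM in pnr-0 barcodes (SD, n = 7 each; log2 fold change 3.30, edgeR FDR = 6.03e-12). *Alk*, a receptor tyrosine kinase, averaged 126.5 ± 76.8 CPM in pnr barcodes and 15.3 ± 3.89 CPM in pnr-0 barcodes (SD, n = 7 each; log2 fold change 2.80, edgeR FDR = 2.68e-10). *ush* (2.57), *mirr* (2.43) and *CG45263* (2.28) followed. All 11 testable genes of the peak BMP list were higher, among them *zen* (2.73), *peb* (2.04) and *Ance* (1.43, not called by DESeq2), with a median of 2.08 beside 0.0015 over all genes tested. *rho*, which did not pass against pnr-0 cells of the pooled table, was called higher here at 1.20.

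*sog* (-3.90), *pDsRed* (-3.24), *brk* (-3.15) and *Oatp74D* (-3.10), an organic anion transporter, led the lower genes. *pgc*, the pole cell factor that silences transcription, averaged 154.8 ± 341.7 CPM in pnr barcodes and 931.1 ± 621.5 CPM in pnr-0 barcodes (SD, n = 7 each; log2 fold change -3.16, edgeR FDR = 1.99e-06). Its groups overlapped, with 929.3 CPM in the pnr barcodes of replicate 2. The summed pole cell list ran from 63.9 to 1106 CPM in pnr barcodes and from 489.2 to 2683 CPM in pnr-0 barcodes, so the 2 groups also differed in germ cell transcripts, whose part in the other genes was not tested. *dpp* (1.47), *tsg* (1.88) and *cv-2* (1.78) were higher and *tkv* (-1.002) and *SoxN* (-3.05) lower.

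**Figure D4:**
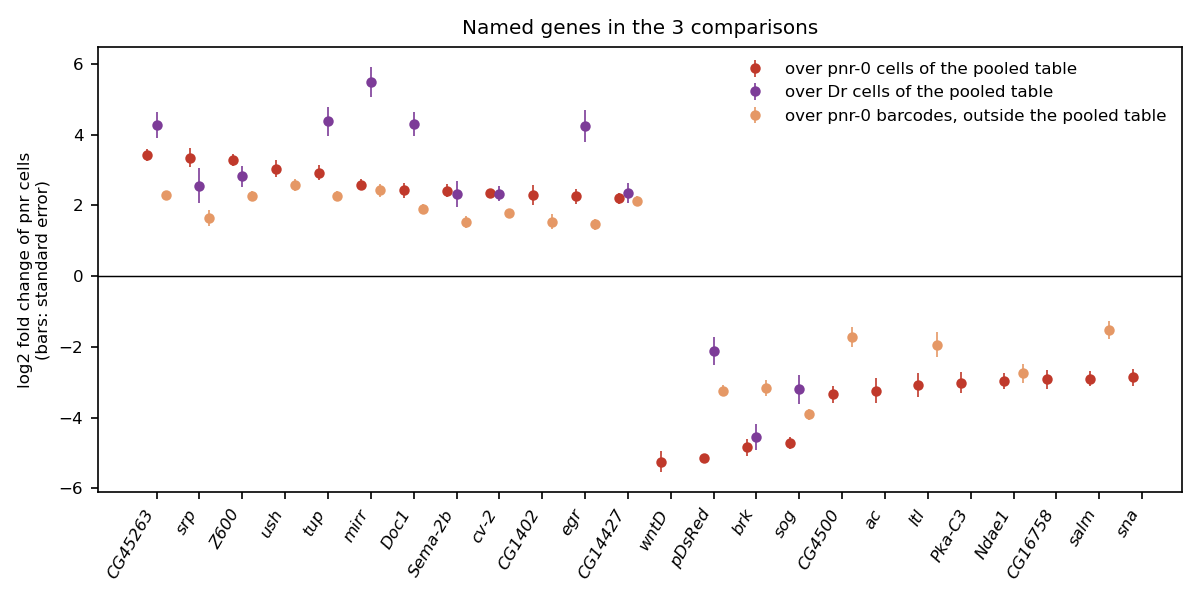
log2 fold change of pnr cells, with the standard error as a bar, for the 24 genes that led the comparison with pnr-0 cells, over pnr-0 cells, over Dr cells and over pnr-0 barcodes outside the pooled table. Each gene that could be fitted lies on the same side of 0 in all 3 comparisons, which share libraries and, in the first 2, the pnr cells.

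The members were also divided by genes of the peak BMP and amnioserosa list, among them *tup*, which is also a marker given for these cells. In 84 of them at least 1 UMI of *zen*, *zen2*, *C15*, *peb*, *ush* or *tup* was present, and in 45 none was. Their median depths were 22720 UMIs with such a UMI and 18240 UMIs without, and the part of depth in the split was not tested. In the 84 cells *tup* had 360 UMIs and *ush* 192, against 94 for *zen*, 76 for *peb*, 57 for *C15* and 20 for *zen2*. The split is therefore not one by amnioserosa genes alone. Values of the 5 libraries with at least 3 cells of each kind are given as a description, since the split rests on these cells' own UMIs and the genes shown were chosen after their values were seen. *mirr* averaged 199.7 ± 88.8 CPM in cells with such a UMI and 6.71 ± 5.34 CPM in cells without (SD, n = 5 each). *Doc1* averaged 306 CPM with and 40.5 CPM without, *srp* 83.3 CPM with and 5.71 CPM without, and *rho* 245 CPM with and 7.95 CPM without. *grn* averaged 123.9 CPM in cells with such a UMI and 8.51 CPM in cells without. Each of these was higher in cells with such a UMI in 5 of 5 libraries. *pyr*, the FGF ligand, averaged 32.1 CPM with and 125 CPM without, and *ths* 88.2 CPM with and 233.5 CPM without, lower with such a UMI in 5 and 4 of 5 libraries. *cv-2*, *pnr*, *dpp* and *Antp* differed less, at 276.3, 257.8, 150.4 and 418 CPM in cells with such a UMI and 207.2, 206.6, 104.8 and 320.9 CPM in cells without.

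**Figure D5:**
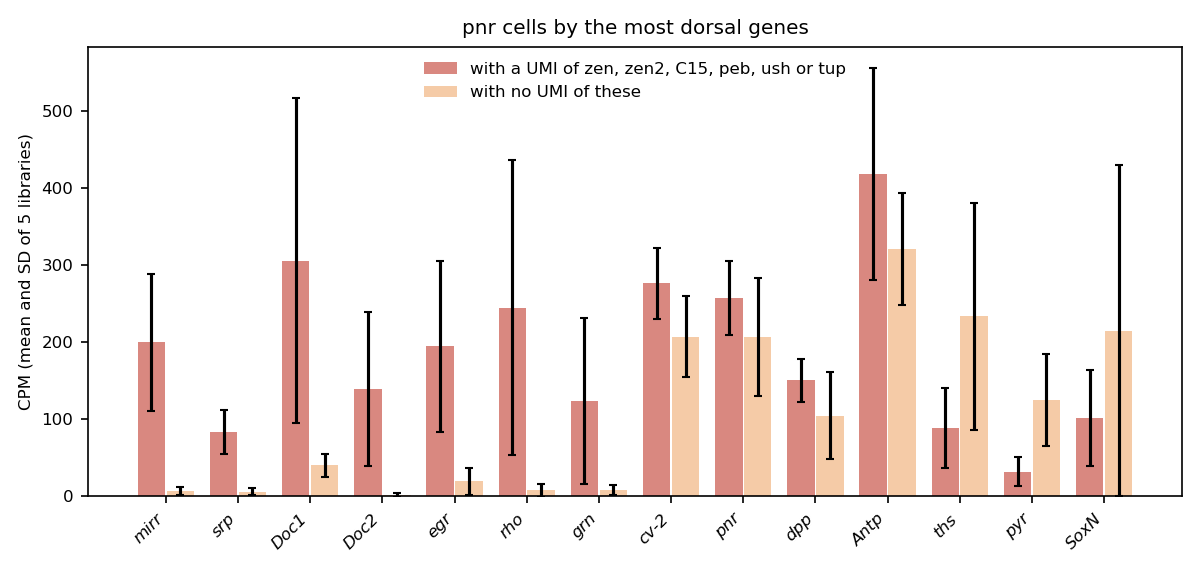
Mean level in CPM, with the SD of 5 libraries as a bar, in pnr cells with at least 1 UMI of *zen*, *zen2*, *C15*, *peb*, *ush* or *tup* (left bars) and pnr cells with none (right bars). *mirr*, *srp*, the *Doc* genes, *egr*, *rho* and *grn* are higher in the first kind, while *cv-2*, *pnr*, *dpp* and *Antp* are close in both and *ths*, *pyr* and *SoxN* are higher in the second.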

How the data were processed

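The authors deposited unscaled UMI counts for the barcodes of 7 Drop-seq libraries and for a pooled set of 1297 cells and 10154 genes, and raw read counts for a bulk library. The submitters' processing notes name STAR, HTSeq and BDGP6, with no versions. Library tables held 8855169 to 21429520 UMIs. A pooled column was tied to a library when its barcode occurred in that library alone and its summed absolute difference from that library's counts was at most 5% of its UMIs, which held for 1289 of 1297 columns. UMIs were summed per library and group, scaled with TMM, filtered with filterByExpr and tested with edgeR 4.0.16 in R 4.3.3, with the library as a block because both groups came from each library. DESeq2 1.42.0 was an alternative. Groups with under 3 cells in a library were left out of that library. The genes named first in each direction, 12 in the main comparison and 5 in the others, were those with the largest change past an FDR of 0.05, of 1 sign in every library and with at least 10 CPM in the higher group. Alternatives changed the filter, the block, the *pnr* threshold, the cells set against, the depth and the libraries. The scripts were tested on simulated counts. Confidence limits and limits at a count of 0 cover counting error only. The cells, gene lists and tests were chosen with earlier results of these data known. Gene positions come from BDGP6.54 and matched 4689 of 4742 genes in the main table.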

Additional observations from a re-analysis of the deposited data

Results flagged for a closer look

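In the 5 pnr cells of replicate 1, *srp* (248.8 CPM), *ush* (149.3 CPM), *tup* (335.8 CPM) and *wntD* (12.4 CPM) stood far above the other 6 libraries, where pnr cells had 34.7 to 57.4, 23.2 to 73.0, 65.5 to 153.3 and 0 to 4.26 CPM. For *wntD* this value lies at the counting floor. The gene had 8 UMIs in all pnr cells, and the pnr cells of replicate 1 held only 80396 UMIs of all genes. In the 11 pnr cells of replicate 6, *ltl* (29.8 CPM) and *Pka-C3* (19.2 CPM) stood above the other libraries, at 0 to 12.4 and 0 to 7.74 CPM. In the pnr-0 cells of replicate 5, *ac* was at 10.5 CPM, below 44.8 to 63.7 CPM in the others. These were 7 of 55 sets of library values examined, which also included the share of pnr cells and the median depths. The rule's critical values are set to flag about 1 in 20 by chance. The flags of replicate 1 rest on the same 5 pnr cells and are not independent.

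In replicate 3, labelled as a single-species library, 0.149% of UMIs lay on *D. virilis* genes, against 0% in the other single-species libraries. These UMIs entered no comparison.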

How the results depend on the processing

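The library number pairs the groups, since both come from the same libraries. With that replicate block 415 genes were called against pnr-0 cells and without it 225, all among the 415, of which 55.6% were higher, against 43.6% with the block. DESeq2 called 347 (346 shared). Without the low-count filter 528 were called, with cells thinned to 10000 UMIs 294, and against cells without *vnd*, *ind* and *sim* 273 (265 shared). Leaving out each library gave 349 to 431. Against Dr cells 164 genes were called without the filter, and 67 to 106 with each library left out, with 67 without replicate 3. DESeq2 called 76, and the fit without the block 74. Among outside barcodes the range was 482 to 645, with 456 by DESeq2 and 415 without the block. The difference in median depth was 4073 UMIs (exact sign-flip p = 0.0156) against cells without *vnd*, *ind* and *sim*, and 1440 to 3290 UMIs with each library left out. The difference in share between mixed and single-species libraries ran from -2.02 to 0.69 percentage points with each library left out, was 0.35 without replicate 1, 0.69 without replicate 7 and 2.28 at a threshold of 1 *pnr* UMI. Single genes were counted over the leading and list genes against pnr-0 cells and, in the other comparisons, over their leading genes alone. Of 1673 such values under alternatives, 1625 were counted as the same, 31 lost and 14 gained the call, and 3 turned. Those 3 were *rho* (1.37), *grn* (-0.029) and *Egfr* (-0.077), all against cells without *vnd*, *ind* and *sim*. A turn was counted only for genes called in the main fit or in the alternative. Genes called in neither could change sign uncounted, as *Ance* did from 0.44 to -0.35 against the same cells. All 363 values of the 24 leading genes against pnr-0 cells kept direction and call, which their choice set in large part. Among the 1673 values, the lost calls were of *grn*, *slp2*, *lov*, *odd*, *wg*, *ftz*, *eve*, *Egfr*, *zfh1*, *shn*, *l(1)sc*, *apt*, *ptc*, *S* and *pnt*. Outside that count, list or leading genes that lost a call against Dr cells were *pDsRed*, *sog*, *shn*, *l(1)sc*, *prd*, *neur* and *pyr*. *pDsRed* did so with DESeq2 (-0.88) and without replicate 7 (-0.92). Among outside barcodes they were *Ance*, *Kr*, *ftz*, *odd*, *rau*, *slp1*, *pnt* and *Ilp4*. The cause of these changes was not tested. Replicate 1 held 5 pnr cells and limits that library most.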

Other observations

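The 36 cells with 1 UMI of *pnr* and none of *vnd*, *ind* or *sim*, which are no members, held *CG4500* at 201.9 CPM and *salm* at 217.5 CPM. Cells with 2 UMIs of *pnr* held both at 22.9 CPM, and the 199 cells with 0 UMIs held *CG4500* at 119.6 CPM and *salm* at 138.4 CPM. Mesoderm genes stood higher in the same 36 cells as well, with *twi* at 127.6 CPM, against 30.6 CPM at 2 UMIs and 71.1 CPM at 0, and *sna* at 70.3 CPM, against 10.2 CPM at 2 UMIs and 61.6 CPM at 0. *cv-2* in the same 36 cells, at 184.9 CPM, lay between the cells with 2 UMIs (275.2 CPM) and those with 0 (86.9 CPM). These are sums over cells of all libraries and were not tested.

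Against the 199 cells without *vnd*, *ind* or *sim*, *Kr*, a gap gene of the central trunk, was higher in pnr cells at a log2 fold change of 0.84, while against all pnr-0 cells it stood at 0.29 and did not pass. *Antp* (1.00) and *Ubx* (0.86) were called higher in that comparison too, and *gt* (-1.98) and *gsb* (-1.89) lower.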
